A study of Mus musculus with 4 samples.

Results

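The CTCF binding regions around the limb T-box genes Tbx2, Tbx3, Tbx4 and Tbx5 numbered 123 of the 121759 regions found across the genome in 4 tissues of mouse embryos. The regions were taken by position alone, around genes chosen with earlier results of these data known. On mm10, the RefSeq gene spans are chr11:85832615-85841948 for Tbx2 (gene ID 21385), chr11:85886367-85916097 for Tbx4 (21387), chr5:119670534-119684724 for Tbx3 (21386) and chr5:119796514-119885220 for Tbx5 (21388). Adding 250 kb on each side and merging neighbours gave a Tbx2 and Tbx4 window, chr11:85582615-86166097, with 58 regions, and a Tbx3 and Tbx5 window, chr5:119420534-120135220, with 65.

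CTCF was mapped by chromatin immunoprecipitation and sequencing, and the authors deposited 1 list of enriched intervals (peaks) for 1 library of each tissue. All embryos were wild type on a B6CBAF1 background. The tissues were posterior trunk at embryonic day (E) 10, which is tailbud, presomitic mesoderm and a few somite pairs pooled from about 30 embryos, and brain at E12.5, a pool of 6 telencephalons. The others were distal and proximal forelimb at E12.5, whose titles mark them as re-analysed data. Hindlimb was not among the tissues, and hindlimb buds were kept out of the trunk piece as far as the dissection allowed. With 1 library per tissue no difference given here has a replicate check, and no p-value is printed. The posterior trunk list held 106662 peaks, against 63873 to 74127 in the other lists. Posterior trunk and brain were sequenced 2.21 and 2.02 times as deeply as distal forelimb, judged by the lowest local background in each list, and proximal forelimb 1.08 times. Where both forelimb lists differ from posterior trunk and brain, tissue, re-analysed data and depth cannot be told apart.

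T-box proteins bind DNA through the conserved domain that gives the family its name. Tbx5 is needed for the forelimb bud to start growing and for heart development, and Tbx4 for outgrowth of the hindlimb bud. Tbx2 and Tbx3 mostly repress transcription and act in limb patterning, the heart and other organs. In vertebrates the 4 genes lie as linked pairs, Tbx2 with Tbx4 and Tbx3 with Tbx5, that descend from the duplication of an ancestral pair. CTCF is a zinc-finger protein that stops cohesin as it extrudes chromatin loops, and its sites lie at many loop anchors and domain borders.

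Sequences are printed for the 4 RefSeq promoters in the windows, out of 15 listed there, that met a CTCF region, since they show where CTCF lay against an annotated gene start. A promoter is the stretch from 250 bases before to 50 bases after a gene start, read 5′ to 3′ along the gene, from RefSeq on GRCm38.p6 (mm10). Of the 4 members, Tbx4 was matched in this table. The Tbx4 promoter, chr11:85896515-85896814 on the plus strand, lies inside the Tbx4 gene span. Capitals mark its 60 bases within a region called in posterior trunk and distal forelimb. The noncoding gene Tbx3os2 lies next to Tbx3, and its promoter at chr5:119691169-119691468 on the minus strand lay wholly within a region called in all 4 tissues. There, capitals mark a match to the core of the CTCF motif, spelled as CCA, any 2 bases, AG, any 2 bases and GGC. The gene Gm5563 starts inside Tbx5, at the promoter chr5:119831937-119832236 on the minus strand, and Rbm19, which encodes an RNA-binding protein, starts near the far edge of the Tbx3 and Tbx5 window, at chr5:120116263-120116562 on the plus strand. In these last promoters, capitals mark the 251 and 241 bases within a region called in all 4 tissues.
Tbx4: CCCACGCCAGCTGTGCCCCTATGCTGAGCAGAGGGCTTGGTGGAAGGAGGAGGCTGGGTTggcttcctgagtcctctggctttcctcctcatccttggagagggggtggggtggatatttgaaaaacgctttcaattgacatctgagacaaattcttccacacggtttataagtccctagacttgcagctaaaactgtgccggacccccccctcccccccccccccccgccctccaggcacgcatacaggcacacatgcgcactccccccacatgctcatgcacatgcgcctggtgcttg
Tbx3os2: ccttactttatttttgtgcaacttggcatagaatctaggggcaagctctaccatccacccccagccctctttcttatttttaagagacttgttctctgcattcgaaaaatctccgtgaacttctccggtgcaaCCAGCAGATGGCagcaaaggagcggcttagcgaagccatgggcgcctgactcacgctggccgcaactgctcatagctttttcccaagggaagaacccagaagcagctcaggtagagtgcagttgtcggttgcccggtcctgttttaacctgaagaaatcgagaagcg
Gm5563: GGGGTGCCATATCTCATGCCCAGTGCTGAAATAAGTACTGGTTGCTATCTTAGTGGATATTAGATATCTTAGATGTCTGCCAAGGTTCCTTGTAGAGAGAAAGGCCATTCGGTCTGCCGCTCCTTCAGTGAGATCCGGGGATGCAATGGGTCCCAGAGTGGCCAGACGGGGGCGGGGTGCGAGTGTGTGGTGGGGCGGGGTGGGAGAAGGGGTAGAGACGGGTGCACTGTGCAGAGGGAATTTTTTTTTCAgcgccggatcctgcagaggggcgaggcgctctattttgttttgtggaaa
Rbm19: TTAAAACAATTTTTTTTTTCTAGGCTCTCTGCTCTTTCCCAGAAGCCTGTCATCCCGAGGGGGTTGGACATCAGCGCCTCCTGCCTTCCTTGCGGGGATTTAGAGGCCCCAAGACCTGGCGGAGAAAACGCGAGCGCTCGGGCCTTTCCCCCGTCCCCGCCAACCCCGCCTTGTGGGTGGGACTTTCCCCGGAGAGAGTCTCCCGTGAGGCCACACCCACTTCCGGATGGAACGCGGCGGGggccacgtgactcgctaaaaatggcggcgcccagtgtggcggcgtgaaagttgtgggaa

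The match in the Tbx3os2 promoter was CCAGCAGATGGC, at chr5:119691324-119691335 and on the strand printed. The peak summits of the 4 tissues, the bases of highest pileup, lay 0.5 to 20.5 bases from its centre. Both strands were searched with this spelling and with a looser one, CC, any 3 bases, AG, any 2 bases and GGC, which includes every match to the first. Over all 32851 RefSeq promoters of 300 bases, 2.43% held the first spelling and 8.61% the looser one. Of the 3448 promoters meeting a region called in all 4 tissues 9.22% held the first spelling, and of the 26749 meeting no region 1.45% did. Neither spelling occurred in the printed Tbx4, Gm5563 or Rbm19 promoters. In the Rbm19 promoter the 4 summits lay at positions 75 to 80 of the printed sequence, and in the Tbx4 promoter both summits lay before its first base. The promoters of Gm20759 and Gm38554 held a match to both spellings and met no CTCF region.

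Most CTCF regions of the T-box windows were either common to every tissue or seen in posterior trunk only. Regions called in all 4 tissues, termed shared, made up 57 of 123 (46.3%), against 42.4% of regions across the genome. In the Tbx3 and Tbx5 window 35 of 65 (53.8%) were shared, and in the Tbx2 and Tbx4 window 22 of 58 (37.9%). The first share was above that of the genome and the second below it. Posterior trunk alone accounted for 34 regions (27.6%), near the genome share of 28.4%. These split into 18 around Tbx2 and Tbx4 (31.0%) and 16 around Tbx3 and Tbx5 (24.6%). A further 15 regions (12.2%) were called in 2 tissues and 7 (5.69%) in 3, against 10.4% and 7.52% of the genome. Of the pairs, 5 regions were called in posterior trunk and brain (5.46% of the genome), 4 in posterior trunk and distal forelimb (1.97%) and 5 in posterior trunk and proximal forelimb (2.09%). Of those in 3 tissues, 1 was missing from posterior trunk (0.289% of the genome), 2 each from brain (1.47%), distal forelimb (2.85%) and proximal forelimb (2.91%).

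Regions private to another tissue were few, and proximal forelimb held most of them. Of 10 such regions (8.13%, against 11.3% of the genome), 8 were called in proximal forelimb, 1 in distal forelimb and 1 in brain. The 8 in proximal forelimb were 6.50% of the regions, against 2.23% of the genome, with 4 in each window. Ranked by p within the proximal forelimb list, their percentiles were low, at 0.495 to 15.3 around Tbx2 and Tbx4. Around Tbx3 and Tbx5 they were 0.344 to 27.3. With −log10 of the authors' q of at least 5 required, 3 of the 8 kept this pattern and 5 were called nowhere. Brain-only regions went the other way, at 1 of 123 (0.813%) against 5.92%, and 3.11% of the genome was called in distal forelimb only. Proximal forelimb contributed 77 peaks in the windows, distal forelimb and brain 68 each, and posterior trunk 111.

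The strength of each peak is given here as the authors' fold and as a percentile. The fold divides the reads piled up at the summit by those expected from the local background, after 1 is added to each. The list percentile ranks a peak by the authors' p against all peaks of the same list, and the strongest has 100. The shared percentile is the same place among the 51657 shared regions of the genome, so that it has 1 denominator in every tissue. Both describe a peak within its own library and are not differences in occupancy. Values are given in the order posterior trunk, brain, distal forelimb, proximal forelimb unless stated.

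**Figure D1:**
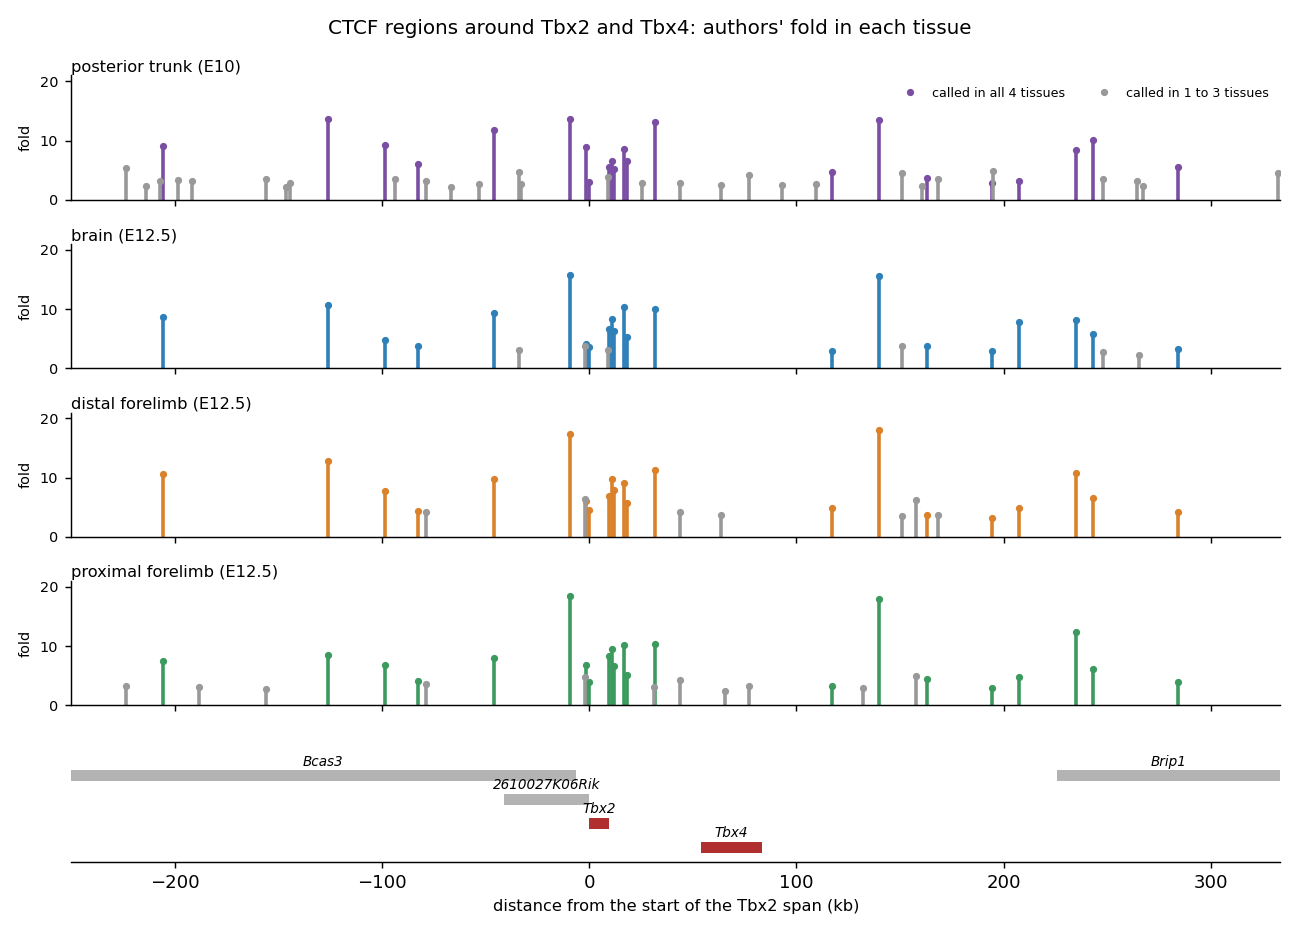
CTCF regions around Tbx2 and Tbx4. Each stem is a region, placed by its distance in kb from the start of the Tbx2 span (x axis) with the authors' fold in that tissue (y axis), coloured where all 4 tissues had the region and grey where 1 to 3 had it. Gene spans lie below, and Tbx4 has no coloured stem over it.

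Tbx2 lay in a dense group of shared regions, while Tbx4 held none. Around Tbx2 a run of 6 regions, 5 of them shared, covered 9.78 kb from chr11:85841404 to 85851179. It began within the gene at its higher coordinate end and reached into the space before Tbx4. The 44.4 kb between the genes held 8 regions, of which 5 were shared, or 11.3 shared regions per 100 kb. The 250 kb flank on either side held 3.2 per 100 kb. Shared regions were absent from the 85.0 kb between chr11:85864793 and 85949760, a stretch that covers the whole Tbx4 span. Gaps at least this long made up 13.7% of the gaps between shared regions in the genome.

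At the end of Tbx2, the shared region chr11:85841854-85842408 had folds of 5.45, 6.67, 6.83 and 8.39. Its shared percentiles were 48.7, 64.1, 69.1 and 79.3, so it stood lowest in posterior trunk and highest in proximal forelimb, 30.6 points apart. Only 68 bases before it, chr11:85841404-85841785 was called in posterior trunk at fold 3.77 and in brain at fold 3.09, and in neither forelimb list. Its list percentiles were 62.8 and 44.8. The chance that the forelimb libraries would call a region of the same occupancy, given their relative depth, came to at least 0.9998. This chance uses the pileup seen where the region was called and so leans high near the threshold. It also takes the local background, relative to the lowest in the list, from that library. Here this was 5.97 times in posterior trunk and 4.43 in brain. At the shared region beside it, it was 6.41 in distal and 5.55 in proximal forelimb.

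By p, the region between Tbx2 and Tbx4 that stood highest in both forelimb lists lay 1.21 kb beyond Tbx2. By fold, chr11:85864288-85864793 stood highest in those lists instead, at 11.2 in distal and 10.3 in proximal forelimb. The region highest by p, chr11:85843160-85843656, had folds of 6.56, 8.33, 9.82 and 9.54 and list percentiles of 81.8, 85.1, 91.2 and 88.8. It was above the 80th percentile of every list and lowest in posterior trunk. The next, chr11:85844622-85845016, had folds of 5.25, 6.27, 7.88 and 6.69, and its shared percentile ran from 50.7 in posterior trunk to 81.0 in distal forelimb. At chr11:85849000-85849472 the folds were 8.65, 10.3, 9.09 and 10.2, and the shared percentiles stayed within 8.98 points of each other.

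The remaining regions of the interval differed in how many tissues had them. The shared region chr11:85850734-85851179 had folds of 6.62, 5.24, 5.71 and 5.09, and its shared percentiles spanned 3.66 points, the least of the shared regions between the genes. Nearer Tbx4, chr11:85864288-85864793 had folds of 13.2, 10.1, 11.2 and 10.3 and was highest in posterior trunk by shared percentile (74.4, against 58.8 to 65.4). A peak called in proximal forelimb only, chr11:85863929-85864156 with fold 3.06, ended 131 bases before it. Posterior trunk alone had chr11:85857993-85858244, at fold 2.86. The last, chr11:85876381-85876755, lay 9.61 kb from Tbx4 and was absent from brain alone, with folds of 2.85 in posterior trunk, 4.18 in distal and 4.25 in proximal forelimb.

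On the other side of Tbx2, 3 regions lay within 5 kb of the span and differed in their tissues. The nearest, chr11:85832158-85832552, was 0.063 kb away and shared but weak, with folds of 3.04, 3.58, 4.62 and 3.99. Its shared percentile was 3.76 in posterior trunk and 7.12 in brain, and higher in distal (21.8) and proximal forelimb (16.5). At 1.19 kb, chr11:85830931-85831422 had folds of 8.97, 4.06, 6.13 and 6.86 and shared percentiles of 50.4, 11.7, 35.4 and 42.9. Posterior trunk stood highest there and brain lowest, 38.7 points apart.

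The third region, chr11:85830281-85830543 at 2.07 kb from Tbx2, was the single region in either window that was missing from posterior trunk alone. Brain had a fold of 3.69, distal forelimb 6.32 and proximal forelimb 4.74, with pileups of 43, 54 and 42 reads and list percentiles of 30.3, 49.4 and 38.4. At the same occupancy, the chance of a call in the deeper posterior trunk library came to at least 0.9999 from each of the 3 libraries. It ended 387 bases before the neighbouring region that was strongest in posterior trunk, where the trunk pileup was 214 reads. That neighbour's trunk background was 2.46 times the lowest in the list. The chances rest on the 1.28 to 1.82 times seen in the lists that called the region, and a higher trunk background would lower them.

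Within Tbx4, the 3 regions were all weak and each was missing from brain. Absence from brain was common, since brain had 68 of the 123 regions of both windows and 73606 of 121759 across the genome. The region at the Tbx4 RefSeq promoter, chr11:85896278-85896574, had folds of 2.51 in posterior trunk and 3.76 in distal forelimb, from pileups of 38 and 19 reads. Its list percentiles were 13.7 and 14.8. At the occupancy seen in posterior trunk, the chance of a call was 0.947 in brain and 0.680 in proximal forelimb, and at that seen in distal forelimb it was 0.9998 and 0.970. Further in, chr11:85909660-85910036 was called in posterior trunk at fold 4.26 and in proximal forelimb at fold 3.27. Proximal forelimb alone had chr11:85897936-85898135, at fold 2.42 and list percentile 0.495, close to the bottom of its list.

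The strongest regions of the window lay on both sides of the pair. Nearer Tbx2, at 8.95 kb and within both Bcas3 and 2610027K06Rik, chr11:85823027-85823662 had folds of 13.7, 15.8, 17.4 and 18.4. Its list percentiles were 97.6, 95.4, 95.7 and 94.1. At 56.1 kb beyond Tbx4, chr11:85972204-85972887 had folds of 13.5, 15.7, 18.0 and 17.9 and list percentiles of 97.0, 98.5, 97.0 and 98.2. Both were above the 90th percentile of every list.

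One region was found in both forelimb parts and nowhere else. It was chosen for description after its values were seen, as were the others in this paragraph. At chr11:85990027-85990358, 73.9 kb beyond Tbx4, the fold was 6.27 in distal and 4.99 in proximal forelimb, from pileups of 41 and 35 reads and at list percentiles of 44.1 and 35.9. The computed chance of a call in the deeper trunk and brain libraries was 1 when rounded. Regions with this pattern were 0.332% of those in the genome. A shared region at chr11:86039916-86040386 had folds of 3.13, 7.82, 4.84 and 4.86 and stood highest in brain, with shared percentiles of 1.26, 39.6, 17.5 and 22.2. Within Brip1, a DNA helicase gene, chr11:86067143-86067575 had folds of 8.32, 8.14, 10.8 and 12.4 and shared percentiles from 30.1 in posterior trunk to 66.0 in proximal forelimb. Within Bcas3, chr11:85733590-85734574 had folds of 9.21, 4.85, 7.70 and 6.88 and shared percentiles of 53.2, 22.1, 41.3 and 40.6, lowest in brain.

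The trunk-only regions around Tbx2 and Tbx4 were weak in the trunk list itself. Their folds ran from 2.103 to 4.82 with a median of 2.77, and 2 of 18 had a fold of at least 4. The strongest, chr11:86027304-86027705, lay 111 kb beyond Tbx4 at fold 4.82 and list percentile 49.0. The single brain-only region, chr11:86097875-86098177 in Brip1, had a fold of 2.20.

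**Figure D2:**
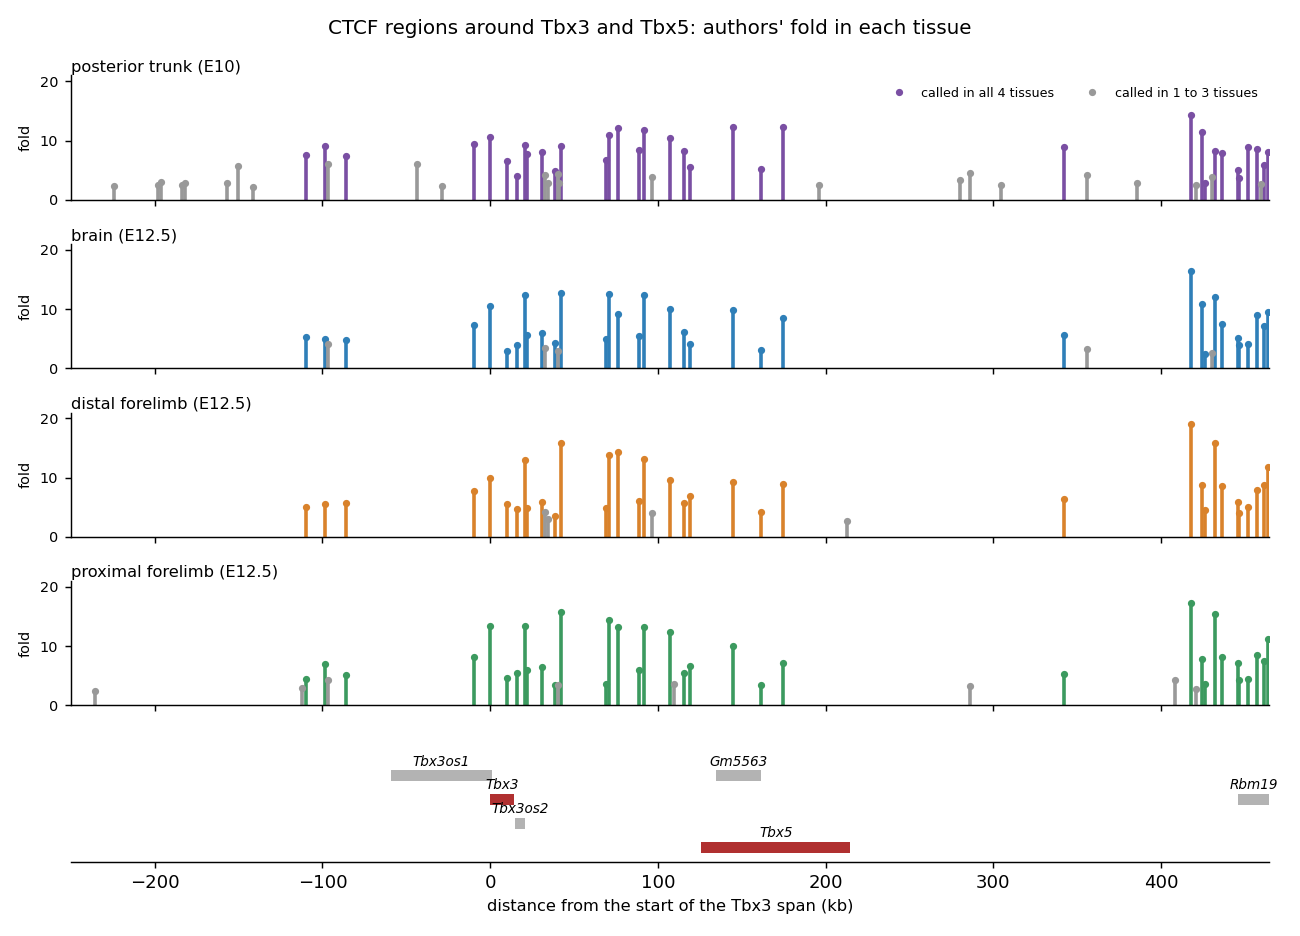
CTCF regions around Tbx3 and Tbx5. Each stem is a region, placed by its distance in kb from the start of the Tbx3 span (x axis) with the authors' fold in that tissue (y axis), coloured where all 4 tissues had the region and grey where 1 to 3 had it. Shared regions crowd the space between the genes, and none lies in the 167 kb that begins inside Tbx5.

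Between Tbx3 and Tbx5 shared regions were also closely spaced. The 112 kb held 20 regions, of which 14 (70.0%) were shared. The 250 kb flank before Tbx3 held 4 shared regions among 17, and that after Tbx5 12 among 21. Of those before Tbx3, 10 were trunk-only. The median gap between neighbouring shared regions was 6.35 kb in this window and 15.3 kb in the Tbx2 and Tbx4 window, against 19.8 kb over the genome. The longest gap ran for 167 kb from chr5:119845531 within Tbx5 to 120012468, and 5.45% of gaps in the genome were at least as long.

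Tbx3 held 2 shared regions of very different strength. At its lower coordinate end, chr5:119670378-119671078 also overlaps the noncoding gene Tbx3os1 and had folds of 10.5, 10.5, 10.02 and 13.4. Its list percentiles were 82.1, 71.0, 69.5 and 78.4. The second, chr5:119680394-119681109, had folds of 6.56, 2.99, 5.52 and 4.62, and pileups of 120, 29, 36 and 28 reads. It stood lowest in brain, at a shared percentile of 1.95 against 25.2 in posterior trunk, 24.7 in distal and 15.5 in proximal forelimb. With all libraries thinned to the same lowest background and a −log10 p of at least 5 required, it was no longer called in brain, where its −log10 p before thinning was 7.54.

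Just past Tbx3 lay 3 further shared regions, of which the one over the Tbx3os2 promoter was the strongest in every tissue. At 1.56 kb, chr5:119686288-119686576 had folds of 3.94, 3.92, 4.75 and 5.53, with shared percentiles of 9.60, 14.6, 29.5 and 36.0, so both forelimb parts stood above the trunk and brain. That order was found at 17 of the 57 shared regions of both windows (29.8%), against 23.8% of shared regions in the genome. At 6.32 kb the region over the Tbx3os2 promoter printed above, chr5:119691047-119691610, had folds of 9.32, 12.3, 13.0 and 13.4. Its list percentiles were 84.9, 84.7, 86.1 and 85.6, and its shared percentiles, which have 1 denominator, were 68.9, 78.0, 82.6 and 82.3, lowest in posterior trunk. At 7.65 kb, chr5:119692370-119692889 had folds of 7.80, 5.68, 4.81 and 6 and was highest in posterior trunk by shared percentile (51.1, against 34.2 in distal forelimb).

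A run of 7 regions from chr5:119701187 to 119713360 held the region between the genes that stood highest in brain and both forelimb lists. It also held 2 of the 3 regions in this window that were missing from 1 tissue. At 28.0 kb from Tbx3, chr5:119712758-119713360 had folds of 9.07, 12.7, 15.8 and 15.7 and list percentiles of 88.7, 94.8, 97.9 and 98.2. Its summit pileups were 360, 334, 284 and 284 reads over backgrounds of 2.98 to 4.16 times the lowest in the list. Within the same run chr5:119710814-119711119 was missing from distal forelimb alone, with folds of 4.27 in posterior trunk, 2.94 in brain and 3.38 in proximal forelimb. In contrast, chr5:119703059-119703379 was missing from proximal forelimb alone, with folds of 4.20, 3.51 and 4.18 in posterior trunk, brain and distal forelimb. The computed chances of a call in the list that lacked them were at least 0.988 and 0.978.

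The others of the run were of middle strength or weak. The shared regions chr5:119701187-119701655 and chr5:119708842-119709240 had folds of 8.15, 5.94, 5.97 and 6.46 and of 4.82, 4.25, 3.56 and 3.48. Posterior trunk and distal forelimb alone had chr5:119704955-119705263, at folds of 2.87 and 2.96, and posterior trunk alone had chr5:119711682-119711954, at fold 2.90. A region of the trunk and distal forelimb pattern also lay outside the run, at chr5:119767156-119767473 with folds of 3.88 and 4.09.

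In the part of the interval nearer Tbx5, 2 strong regions kept nearly the same place by p in every tissue and 2 did not. At chr5:119740864-119741547 the folds were 10.98, 12.6, 13.9 and 14.4, and the shared percentiles spanned 3.52 points. At chr5:119762030-119762507 the folds were 11.7, 12.4, 13.1 and 13.3, and the span was 6.87 points. Placed by fold, these 2 regions spanned 21.1 and 9.91 points, and the 2 that follow spanned 23.7 and 16.7. Brain stood apart at chr5:119746593-119747470, with a shared percentile of 53.9 against 73.5 to 76.1 elsewhere and folds of 12.05, 9.18, 14.3 and 13.2. Proximal forelimb stood apart at chr5:119777670-119778449, with 72.6 against 53.8 to 58.5 elsewhere and folds of 10.4, 9.97, 9.62 and 12.3. The shared regions chr5:119739374-119739772, chr5:119758934-119759303 and chr5:119785902-119786490 were weaker. Their folds ran from 6.67 to 8.42 in posterior trunk and from 3.66 to 6.12 in the other tissues.

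Close to Tbx5, the forelimb stood above the trunk and brain at the nearest shared region. This was chr5:119789745-119790137, at 6.38 kb from the span, with folds of 5.48, 4.14, 6.85 and 6.62 and shared percentiles of 19.2, 16.3, 40.8 and 39.0. As given above, 29.8% of the shared regions of both windows and 23.8% of those in the genome had this order. At 16.3 kb, chr5:119779975-119780174 was called in proximal forelimb only, at fold 3.55, a pileup of 38 reads and a list percentile of 27.3. The computed chance of its being called was 0.998 in distal forelimb, and 1 when rounded in posterior trunk and brain.

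Within the 88.7 kb of Tbx5, 3 of 5 regions were shared. At chr5:119815189-119815700 the folds were 12.3, 9.89, 9.19 and 10.03, and the shared percentiles lay within 5.92 points. At chr5:119845031-119845531 the folds were 12.3, 8.56, 9.01 and 7.16, and posterior trunk was highest with a shared percentile of 62.0 against 39.4 to 48.7. The region at the printed Gm5563 promoter, chr5:119831986-119832614, was weak, with folds of 5.14, 3.04, 4.23 and 3.45. There the summits of the tissues lay up to 367 bases apart, and the proximal forelimb summit was the one within the printed promoter. When regions were joined by summits within 150 bases, the peaks here were no longer counted as 1 shared region.

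The remaining regions within Tbx5 were near the calling threshold. Posterior trunk alone had chr5:119866784-119866983 at fold 2.51, and distal forelimb alone had chr5:119883011-119883220 at fold 2.72 and a list percentile of 1.99. Both rested on small pileups, of 25 and 15 reads. No region of the Tbx3 and Tbx5 window was called in both forelimb parts and nowhere else.

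Beyond Tbx5, the strongest regions lay near the edge of the window. At 203 kb, chr5:120088406-120089028 had folds of 14.3, 16.5, 19.1 and 17.2 and list percentiles of 97.4, 98.3, 97.1 and 95.4. At 217 kb, chr5:120102564-120103275 had folds of 8.27, 12.03, 15.9 and 15.5. Its list percentiles were 89.9, 98.2, 99.9 and 99.8, which placed it among the strongest CTCF peaks of both forelimb lists. Its pileups of 398, 390, 367 and 355 reads were near the highest of any peak in each list, which were 399, 393, 368 and 365. These highest pileups were alike although posterior trunk and brain were 2.21 and 2.02 times as deep as distal forelimb. Whether this holds down the folds of the strongest regions in posterior trunk and brain was not tested. The region at the Rbm19 promoter, chr5:120116094-120116503, was named after its values were seen. It had folds of 5.02, 5.15, 5.94 and 7.23 and shared percentiles of 10.5, 24.2, 30.8 and 42.0, in ascending order from posterior trunk to proximal forelimb.

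Other regions of the Tbx3 and Tbx5 window were private to 1 tissue or missing from 1. In posterior trunk alone, the strongest was chr5:119626527-119627070, 43.5 kb from Tbx3 and within Tbx3os1, at fold 6.06 and list percentile 57.8. Here the computed chances of a call in the other libraries were all 1 when rounded. The 16 trunk-only regions had a median fold of 2.70, and 2 of them reached 4. Before Tbx3, chr5:119573915-119574293 was missing from distal forelimb alone, with folds of 6.05, 4.04 and 4.33 in the others. In proximal forelimb alone the highest fold was 4.27, at chr5:120078792-120079112, 194 kb beyond Tbx5. Its list percentile of 22.9 was below the 27.3 of chr5:119779975-119780174.

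For the 34 trunk-only regions of both windows, the computed chance of a call was higher in brain than in the forelimb parts. This order follows from the greater depth of the brain library, which the computation uses, and is not a finding about these regions. The chance of a call at the same occupancy reached 0.95 for 20 of them in brain and for 8 in each forelimb part. The median chances were 0.967, 0.679 and 0.774. Thinning to the same lowest background was combined with a −log10 p of at least 5. Under both, 13 of the 34 were still called in posterior trunk only and the other 21 were called nowhere, of which 6 had a −log10 p below 5 before any thinning. Of the 57 shared regions, 52 stayed shared.

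**Figure D3:**
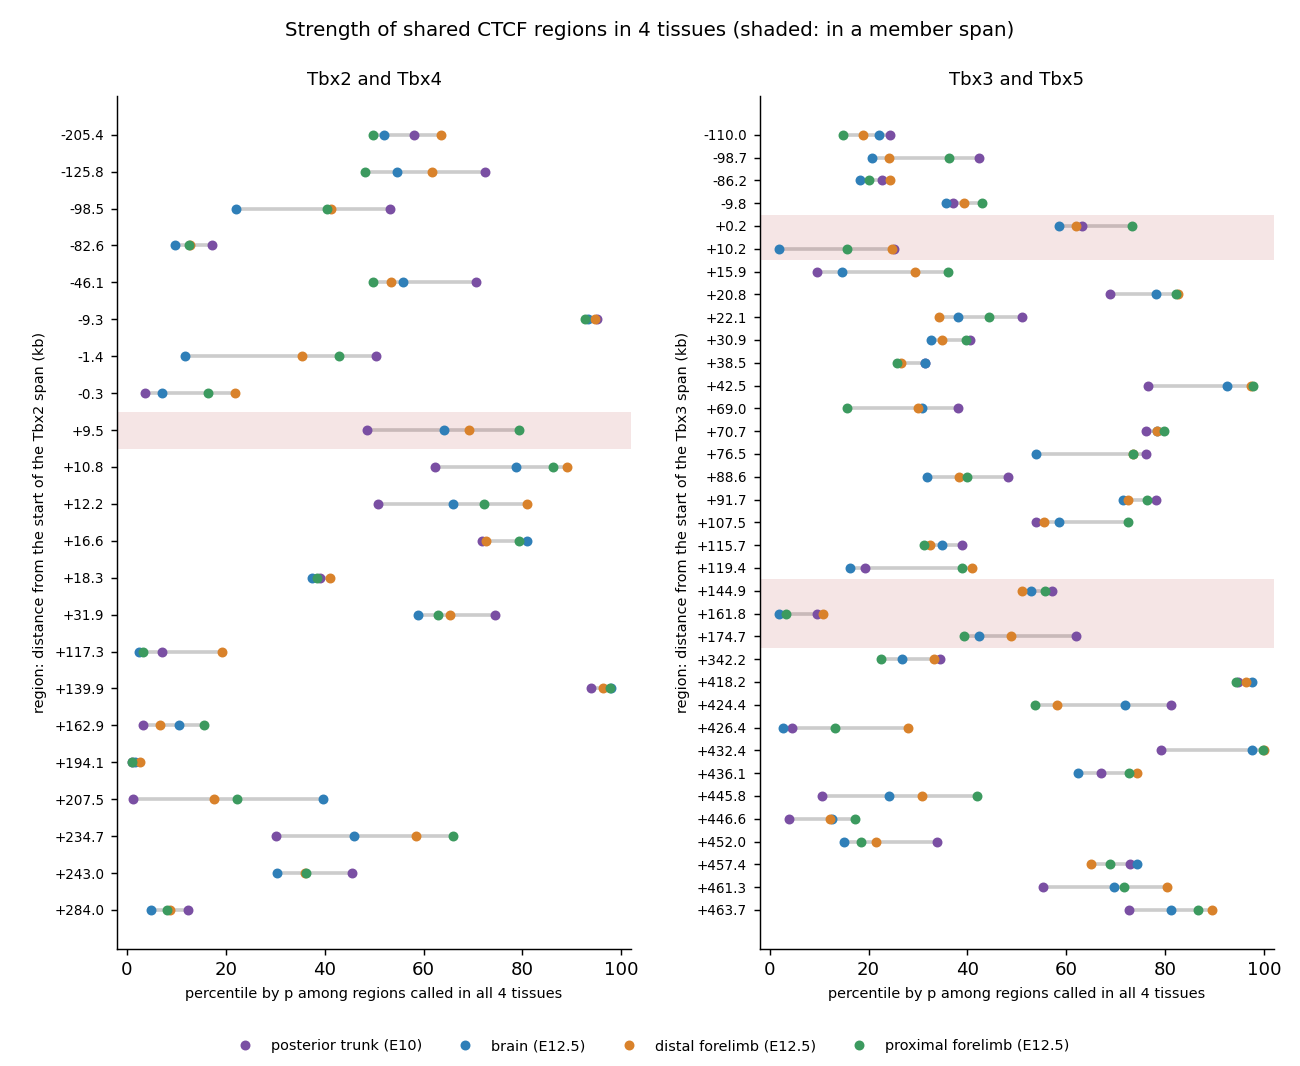
Place of each shared region in each tissue. Each line is a region, labelled by its distance in kb from the start of the Tbx2 or Tbx3 span, with points at its percentile by p among the 51657 regions called in all 4 tissues (x axis), 1 colour per tissue. Points lie close together in some lines and far apart in others, and 6 lines around Tbx2 and Tbx4 but 1 around Tbx3 and Tbx5 span at least 30 points.

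Spreads of at least 30 points between tissues were more frequent among the shared regions around Tbx2 and Tbx4 than among those around Tbx3 and Tbx5. The median spread of the shared percentile over tissues was 16.2 points around Tbx2 and Tbx4 and 16.3 around Tbx3 and Tbx5, against 14.0 over the genome. A spread of at least 30 points was seen at 6 of 22 regions (27.3%) in the first window and 1 of 35 (2.86%) in the second, against 7.62% of shared regions in the genome. Several lay close to that cut, at 30.3, 30.6 and 31.1 points in the first window and 31.5 in the second. This difference between the windows was smaller when regions were placed by fold in place of p, with 7 (31.8%) and 6 (17.1%), against 16%. The correlation of the places between tissues, a description over regions of the same libraries, ran from 0.81 to 0.96 (Spearman, 22 regions) and from 0.87 to 0.94 (35 regions). It was highest between the forelimb parts in both windows, at 0.959 and 0.942, and 0.959 over the genome. The lead in the windows was small. Brain with proximal forelimb reached 0.957 around Tbx2 and Tbx4, and posterior trunk with brain 0.937 around Tbx3 and Tbx5.

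Which tissue stood lowest at a shared region depended on whether regions were placed by p or by fold. By p, brain held the lowest shared percentile at 22 of 57 regions (38.6%), against 19.3% of the genome, and by fold at 17 (29.8%), against 18.3%. By p, posterior trunk was lowest at 19 (33.3%), near the genome share of 33.4%, and proximal forelimb at 13 (22.8%), near 25.5%. Distal forelimb was lowest at 3 (5.26%), against 21.7%. By fold, posterior trunk was lowest at 27 (47.4%, against 37.3%) and distal forelimb at 4 (7.02%, against 20.5%). Proximal forelimb was lowest by fold at 9 (15.8%, against 23.9%).

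By fold, the shared regions were weaker than those of the genome as a whole. Their median folds were 8.27, 6.27, 6.85 and 6.93, against 9.72, 8.48, 8.72 and 8.28. A list percentile of at least 50 in every tissue was reached by 29 of 57 (50.9%), against 56.7% of shared regions in the genome. In position they were as steady as elsewhere, since the 4 summits lay within 50 bases of each other at 52 of 57 (91.2%), against 90.8%.

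**Figure D4:**
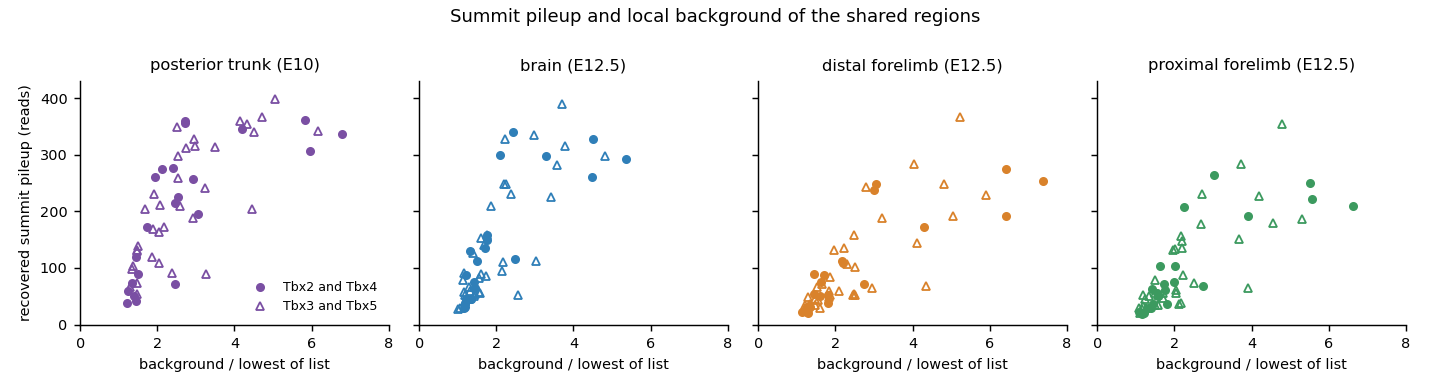
Pileup and local background at the 57 shared regions. Each panel is a tissue, each point a region, with the local background divided by the lowest in the list (x axis) and the recovered summit pileup in reads (y axis); filled circles are Tbx2 and Tbx4, open triangles Tbx3 and Tbx5. Most regions with a raised background also had a high pileup.

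Where shared regions lay close together, pileup and local background were both high. The 18 shared regions with no other CTCF region within 5 kb had median pileups of 135.5, 90.0, 57.5 and 51.0 reads, and median backgrounds of 1.59, 1.31, 1.47 and 1.43 times the lowest in the list. The 16 with 2 or more such neighbours had median pileups of 332.5, 271, 181 and 182.5 reads, over backgrounds of 4.25, 3.16, 4.20 and 3.83 times the lowest. Median folds were 9.16, 7.98, 8.40 and 7.63 for the first and 8.14, 7.71, 8.35 and 8.12 for the second. At the region that ends Tbx2, for example, pileups were 307, 261, 191 and 221 reads over 5.95, 4.49, 6.41 and 5.55 times the lowest background.

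**Figure D5:**
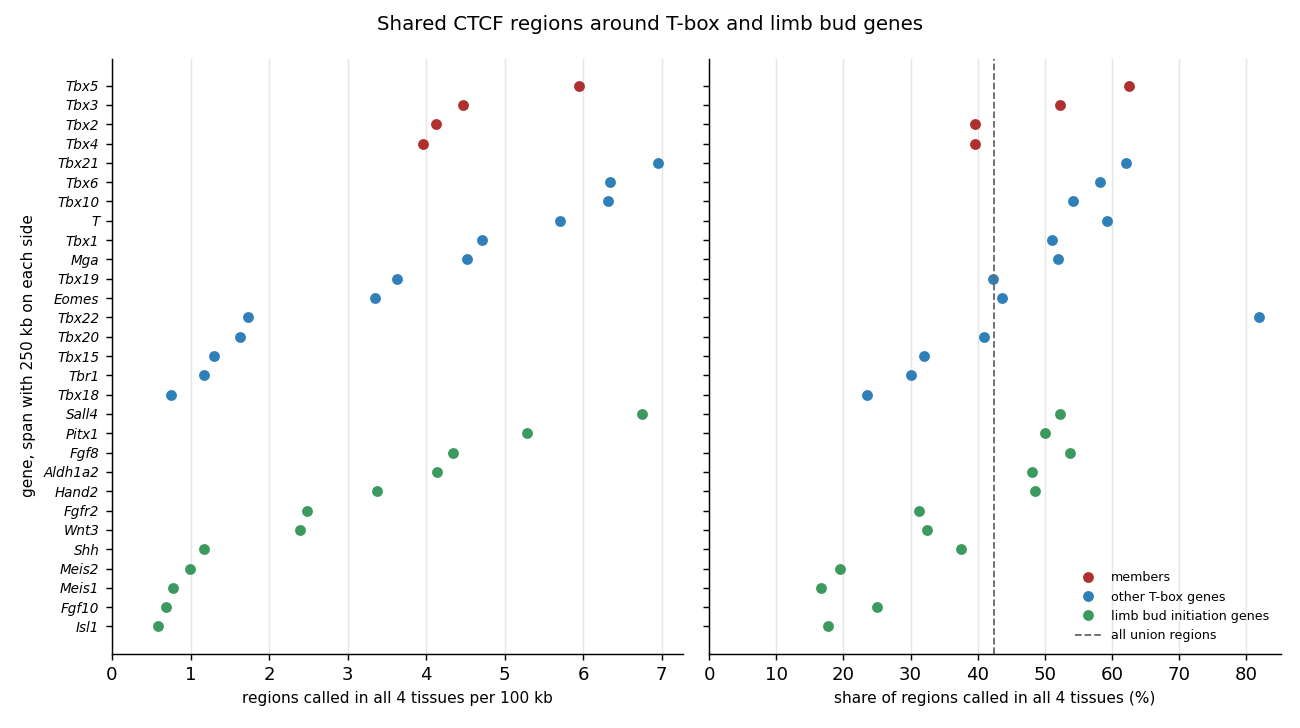
Shared CTCF regions within 250 kb of each member, of 13 other T-box genes and of 12 genes that act beside the limb T-box genes. The legend calls these 12 limb bud initiation genes. The left panel gives shared regions per 100 kb and the right panel their share of all regions in the window (%), with the genome share dashed at 42.4%. Tbx5 has the most of the 4 members in both panels.

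Among T-box genes, each taken with 250 kb on both sides, all 4 members had more shared regions per 100 kb than the median of the others. Shared regions per 100 kb came to 5.95 for Tbx5, 4.47 for Tbx3, 4.12 for Tbx2 and 3.96 for Tbx4. The 13 other T-box genes had a median of 3.63, from 0.757 at Tbx18 to 6.96 at Tbx21. The share of regions that were shared was 62.5% for Tbx5, 52.3% for Tbx3 and 39.6% for both Tbx2 and Tbx4, with a median of 51.1% among the other T-box genes. Windows of linked members overlap, so these are not separate sets. A shared region within the gene span was found for 8 of the 13 others and for each member except Tbx4.

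Shared regions were sparser around 12 genes chosen as acting beside the limb T-box genes. They were Fgf8, Fgf10, Fgfr2, Wnt3, Pitx1, Isl1, Sall4, Hand2, Meis1, Meis2, Aldh1a2 and Shh. Fgf10 is a growth factor gene that Tbx5 activates in the forelimb field. The median of the 12 was 2.44 per 100 kb, from 0.587 at Isl1 to 6.75 at Sall4. Of their 450 regions 178 (39.6%) were shared and 165 (36.7%) trunk-only. Around the other T-box genes 252 of 499 (50.5%) were shared and 126 (25.3%) trunk-only. Regions called in both forelimb parts only were near 2 of the 12 and 2 of the 13 genes.

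At the edges of the windows, the members just inside and the regions just outside were as follows. On chromosome 11, chr11:85608906-85609629 lay 26.3 kb inside the first edge and chr11:85570989-85571333 lay 11.3 kb outside it, both called in posterior trunk and 1 forelimb part. At the last edge a trunk-only region lay 0.885 kb inside, at chr11:86164755-86165212. A shared region lay 8.03 kb outside, at chr11:86174126-86174681, with folds of 16.8, 14.8, 17.0 and 16.7. On chromosome 5, chr5:119434862-119435061, called in proximal forelimb only, lay 14.3 kb inside the first edge, and the shared region chr5:119413801-119414202 lay 6.33 kb outside it. At the last edge a shared region lay 0.65 kb inside, at chr5:120133992-120134570, and another 8.56 kb outside, at chr5:120143783-120144540.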

How the data were processed

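The submitters' processing notes name MACS2 2.1.1.20160309, Bowtie2 2.3.5, cutadapt 1.16 and SAMtools 1.9, and mm10 as the build. Not given in the sources used here were options, any input control and the treatment of duplicate reads. For each library the authors deposited a peak list with a fold ratio, a score, the summit offset and, at the summit, −log10 of a p-value and of a q-value. In the deposited lists the score is −log10 q times 10 without its decimals for 99.98% of rows or more, and the lowest −log10 q was 1.30. Peaks were thus called per library.

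Rows of 1 interval were merged to the strongest summit, and peaks sharing at least 1 base were joined into regions on chromosomes 1 to 19, X and Y. Solving fold and p for whole pileups and their backgrounds left errors of up to 0.00031 in −log10 p. The lowest background, 9.34 in posterior trunk, 8.53 in brain, 4.23 in distal and 4.58 in proximal forelimb, stood in for depth. The absolute depth is unknown, so no counting interval is given. Percentiles, chances and counts were computed with pandas 2.3.3, scipy 1.17.1 and numpy 2.4.6 in Python 3.11.15, drawn with matplotlib 3.10.9, and checked on simulated lists. RefSeq spans carry no strand or exons, so distances are to spans.

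Samples were grouped by the tissue in the labels. The members, gene lists and alternatives were chosen with earlier results of these data known. Regions named with values are those in or between member spans or within 5 kb of them. Also named are, per window, the 3 with the highest lowest list percentile and, per tissue, the region called there only with the highest fold. Regions missing from 1 tissue with a percentile of at least 25 elsewhere complete the rule, which names 52 of 123. Alternatives were −log10 q of at least 5, joining by summits within 150 bases, lists of equal length, thinning to the same lowest background with −log10 p of at least 5, windows of 100 or 500 kb and other percentiles.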

Additional observations from a re-analysis of the deposited data

How the results depend on the processing

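No paired analysis was possible because only 1 library was made for each tissue. Counts are given for Tbx2 and Tbx4 first, then Tbx3 and Tbx5. Trunk-only regions, 18 and 16 as deposited, came to 4 and 4 in lists cut to the same length of 63873 peaks, 9 and 6 after thinning to the same lowest background together with a −log10 p of at least 5, and 10 around Tbx3 and Tbx5 at −log10 q of at least 5. With 100 kb on each side they were 8 and 6, and with 500 kb 31 and 26. Regions in 1 other tissue, 5 and 5 as deposited, came to 1 and 2 at the stricter q, 8 and 8 in lists of equal length, 3 around Tbx3 and Tbx5 after thinning with that p, 3 and 2 with 100 kb and 9 and 9 with 500 kb. Shared regions around Tbx3 and Tbx5 fell from 35 to 22 with 100 kb, by the narrower window. Shared regions otherwise stayed within 1.5 times of 22 and 35, at 15 (with 100 kb) to 33 and at 32 to 52. Their share stayed below that of the genome around Tbx2 and Tbx4 and above it around Tbx3 and Tbx5 under each setting. After thinning with that p, for example, the shares were 44.4% and 60.4% against 53.6%. Around Tbx2 and Tbx4 the gap was smallest with 100 kb on each side, at 41.7% of 36 regions against 42.4%, nearly the same. Without the posterior trunk library, an alternative chosen after seeing the data, 23 and 35 regions were called in the other 3 tissues. Sites around Tbx2 and Tbx4 at or above percentile 50 in every tissue fell from 11 to 6 when placed among shared regions. The forelimb-only region and the region missing from trunk alone kept their tissues at −log10 q of at least 5, under joining by summits, in lists of equal length and after thinning with that p. The cause of these changes was not tested, and the unknown depth and single libraries limit every count.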
